A study of Mus musculus with 14 samples.

Results

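The contractile machinery of developing muscle was followed through 8 genes in tibialis anterior muscle that had received follistatin, a secreted protein that binds and blocks activins and myostatin. The genes were chosen by symbol from the 24386 genes listed in each expression file. Those that encode thin filament proteins were Actc1 (cardiac alpha-actin), Acta2 (smooth muscle alpha-actin) and Tnnt2 (cardiac troponin T). Those that encode thick filament proteins were Myh3 (embryonic myosin heavy chain), Myh8 (neonatal myosin heavy chain), Myl4 (the atrial and embryonic essential light chain) and Mybph (myosin binding protein H). Adora1, which encodes the adenosine A1 receptor and is no sarcomere gene, was the eighth. It was included because its exons overlap those of Mybph.

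The muscles came from C57Bl/6 mice, and poly(A) RNA was sequenced in 14 libraries. At day 3 there were 3 control libraries and 4 follistatin libraries. Day 7 had 2 of each arm, and day 14 had 1 control library and 2 follistatin libraries. The series design sets day 3 apart as acute treatment and joins days 7 and 14 as chronic treatment, here called the late days. The labels do not give the route of follistatin, the treatment of the controls, the age or sex of the mice, or the strandedness of the libraries. They also do not say that replicates came from separate mice, so the spread that the p-values use is the one among these libraries, which may be technical.

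Skeletal muscle builds its first sarcomeres from isoforms that are later replaced. Embryonic and neonatal myosin heavy chains give way to adult fast and slow ones, and cardiac alpha-actin gives way to skeletal alpha-actin (Acta1). In adult muscle these early isoforms are known to return in regenerating and in denervated fibres. Smooth muscle alpha-actin is also a standard marker of vessel walls and of activated fibroblasts.

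The sequence upstream of the start is printed for 3 of these genes, because 2 of them rose under follistatin and the other fell between day 3 and the late days. Each is the 250 bases before the start in RefSeq, build GRCm38.p6, read along the gene's strand. Capitals mark matches on either strand to the motifs named next, which also occur in promoters at large. The motifs were the CArG box bound by serum response factor, the E-box CANNTG bound by myogenic factors, the M-CAT element CATTCC bound by TEAD factors, the MEF2 site, and TATAAA. All 8 genes were found in RefSeq, with 2 starts each for Adora1 and Tnnt2.
Actc1: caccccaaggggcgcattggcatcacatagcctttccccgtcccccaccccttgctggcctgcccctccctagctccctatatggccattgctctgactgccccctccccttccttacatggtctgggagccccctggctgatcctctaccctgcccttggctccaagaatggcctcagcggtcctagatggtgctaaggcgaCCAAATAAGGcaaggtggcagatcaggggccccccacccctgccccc
Mybph: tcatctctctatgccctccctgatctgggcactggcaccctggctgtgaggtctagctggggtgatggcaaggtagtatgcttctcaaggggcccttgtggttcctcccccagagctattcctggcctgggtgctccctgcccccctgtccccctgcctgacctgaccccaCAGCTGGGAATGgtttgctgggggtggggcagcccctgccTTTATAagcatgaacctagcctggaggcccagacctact
Myh3: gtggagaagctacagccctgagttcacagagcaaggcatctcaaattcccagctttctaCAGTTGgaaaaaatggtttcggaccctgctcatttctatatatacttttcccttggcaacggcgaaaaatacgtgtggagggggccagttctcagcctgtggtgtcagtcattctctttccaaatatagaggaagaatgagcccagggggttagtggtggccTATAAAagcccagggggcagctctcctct
The Actc1 window was chr2:114052876-114053125 on the minus strand, and its capitals are a CArG box at -47 to -38 from the RefSeq start. The annotations differ on where Actc1 begins. GENCODE gives starts at 114052887 and 114053548, so that the last 12 bases of the window lie in the first exon of 1 transcript and all 250 lie in an intron of the other. Of 32851 RefSeq promoters of this length, 1.47% held a CArG box. The Mybph window was chr1:134193198-134193447 on the plus strand. Its capitals are an E-box at -79 to -74, directly followed by an M-CAT element at -73 to -68, and a TATAAA on the other strand at -39 to -34. An E-box was held by 66.2% of promoters, an M-CAT element by 12.6%, a TATAAA by 12.4% and a MEF2 site by 2.92%. The Myh3 window was chr11:67078050-67078299 on the plus strand, with an E-box at -191 to -186 and a TATAAA at -29 to -24. A match describes the letters and is not evidence of binding.

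The libraries carried the marks of the labelled tissue and treatment. Ckm, the creatine kinase of muscle, was at 8829 to 11510 FPKM (fragments per kilobase of transcript, normalised to library size) in the day 3 libraries. In the late follistatin libraries it is listed at 0, where the authors' table marks it HIDATA, meaning too many fragments to estimate. Fst, the follistatin gene, lay between 0.808 and 1.42 FPKM in all 6 control libraries. It was at 49.7 to 67.8 FPKM under follistatin at day 3 and at 367 to 1421 FPKM on the late days. Between 15766 and 17161 genes were above 0 at day 3, and between 16158 and 20283 on the late days. Day and set go together here, and what else differed between the sets cannot be told apart from time. FPKM carry no counts, so the absolute depth is unknown.

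Actc1, Mybph and Adora1 were higher in every follistatin library than in every control library of the same set, both at day 3 and on the late days. They were the only 3 of the 8 genes with that property in both sets. At day 3 such separation in the upward direction was seen for 8.31% of the 11268 genes tested, and on the late days for 8.96% of 11047. Differences were tested with limma on log2(FPKM + 1) over every gene whose mean reached 1 FPKM, and called at a Benjamini-Hochberg adjusted p below 0.05. At day 3, 3 of the 8 genes were called higher and none lower, where 0.923% of all genes tested were called higher and 0.568% lower. Of the 7 tested with limma on the late days, 3 were called higher and none lower, against 2.24% and 3.27% of all genes. The members were chosen with earlier results of these data known, so these counts describe the list and do not test it. Since Adora1 and Mybph share exon bases, their calls are also not separate. Both limits hold for the counts by single day below. An unadjusted p under 0.05 was reached by 15.2% of all genes at day 3 and by 28.3% on the late days. The median log2 difference at day 3 was 0.93 over the 8 genes and 0.01 over all genes tested. It was 0.29 on the late days over the 7 genes and -0.09 over all genes. A log2 difference on this scale understates the change of genes with low FPKM.

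**Figure D1:**
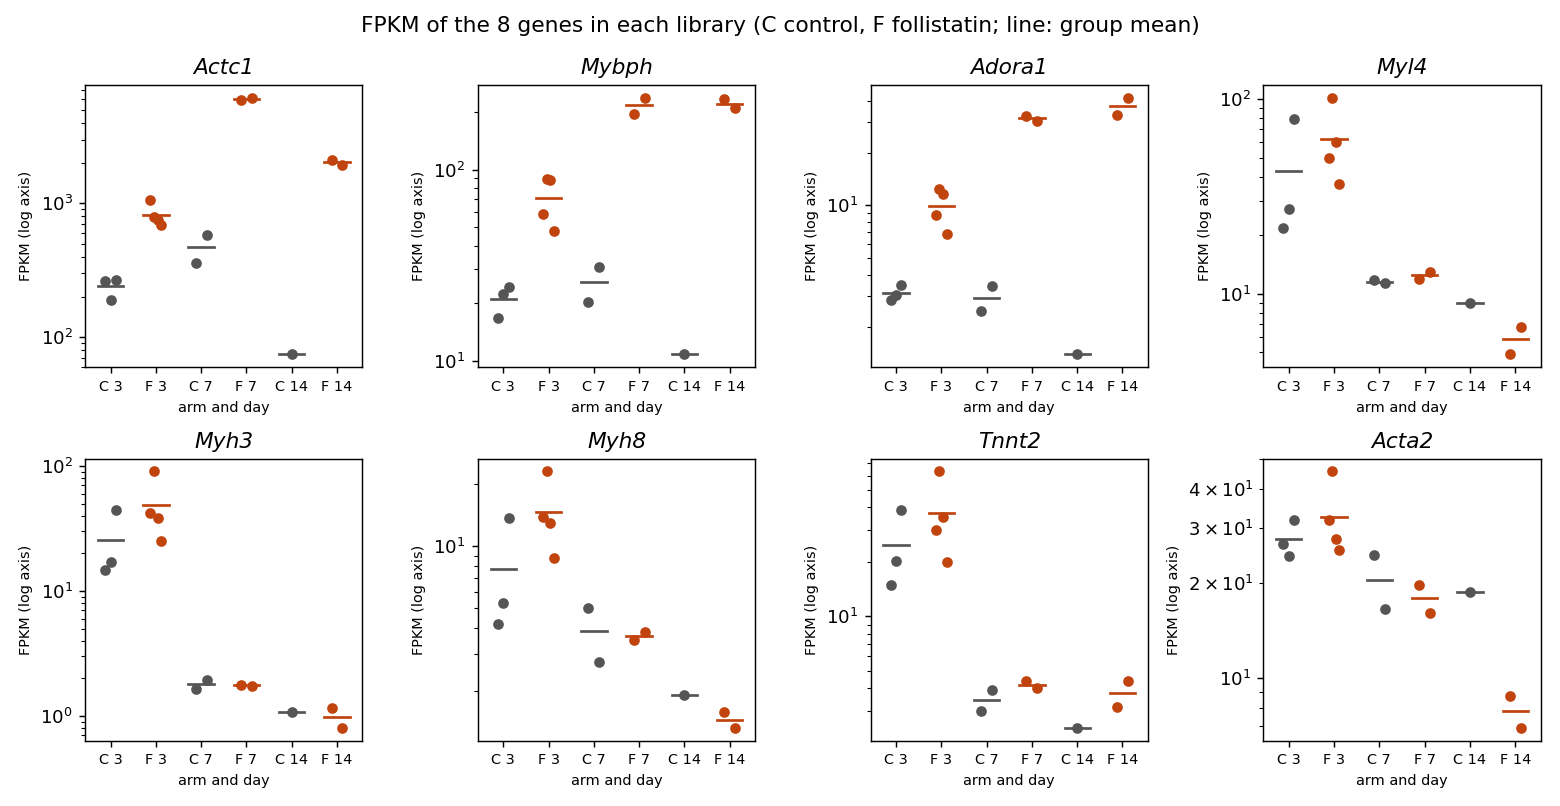
FPKM of the 8 genes in each of the 14 libraries, on log axes, by arm (C control, F follistatin) and day, with points for libraries and lines for group means. Actc1, Mybph and Adora1 separate by arm at every day, whereas Myh3, Myh8, Myl4 and Tnnt2 are highest in libraries of day 3 in both arms. On single late days, with 1 or 2 control libraries, other members separate too. Tnnt2 is higher under follistatin on both late days. Myl4 is higher on day 7 and lower on day 14, and Myh8 and Acta2 are lower on day 14. The share of all genes that separate on single days was not counted.

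Among the thin filament genes, Actc1 showed the largest levels. Its gene lies at chr2:114047282-114053548 on the minus strand (GENCODE, GRCm38). At day 3 it was at 264.8, 190.3 and 267.4 FPKM in the controls and at 1059, 790.1, 746.7 and 691.7 FPKM under follistatin. The lowest follistatin library stood above the highest control by a wide margin, and the controls lay close together. The ratio of means was 3.41, and limma gave a log2 difference of 1.76 (SE 0.17, adjusted p = 0.00338). An exact permutation test over the 35 splits gave a two-sided p of 0.0286, the smallest that these splits allow. At day 7 Actc1 was at 358.9 and 578.1 FPKM in the controls and at 5939 and 6161 FPKM under follistatin. At day 14 the only control library was at 74.6 FPKM, and the follistatin libraries were at 2122 and 1933 FPKM. The follistatin libraries of each day were nearly equal, whereas the 3 late controls were spread widely.

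Over the late days the log2 difference of Actc1 was 3.80 (SE 0.73, adjusted p = 0.0315, limma), with 4.04e+03 FPKM on average under follistatin and 337 FPKM in the controls. The exact permutation p was again 0.0286. The call did not hold in limma fits without 1 of 4 late libraries. The adjusted p was 0.119 without control day 7 replicate 1 and 0.0737 without the day 14 control, where the log2 difference was 2.94. It was 0.0576 without follistatin day 7 replicate 2 and 0.0536 without follistatin day 14 replicate 1. Ordered from the highest mean to the lowest, the groups were follistatin day 7, follistatin day 14, follistatin day 3, control day 7, control day 3 and control day 14. No neighbours in that order overlapped in their libraries.

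The coding sequences of Actc1 and Acta1 are 86.3% identical over 1131 bases, with a longest identical run of 29 bases, and those of Actc1 and Acta2 are 82.6% identical. How the authors divided fragments between these genes is not stated, so their levels carry that uncertainty. The first 60 coding bases of the annotated transcripts are printed to show how the 2 striated muscle actins differ, with the 9 differing bases in capitals.
Actc1: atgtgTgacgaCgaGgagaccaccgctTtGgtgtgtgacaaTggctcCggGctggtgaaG
Acta1: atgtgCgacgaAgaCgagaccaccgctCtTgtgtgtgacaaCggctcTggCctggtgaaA
At day 3 Actc1 amounted to between 0.935% and 1.41% of the Acta1 level in the controls. Under follistatin it amounted to between 3.20% and 5.68%. The authors' table marks Acta1 as HIDATA at day 3, although its FPKM are listed above 0, so the share is a description only. Acta1 is listed at 0 in all 7 late libraries and gives no ratio there. Of 9 cardiac muscle markers, which would mark heart tissue, none reached a mean of 1 FPKM. At day 3 their summed level was 0.946 to 1.63 FPKM in the controls and 1.89 to 2.70 FPKM under follistatin, so that it was higher in every follistatin library, as Actc1 was. On the late days it was 1.10 to 2.50 FPKM and 1.85 to 2.70 FPKM, with overlapping arms. Single markers of this list differed. Nkx2-5, a defining cardiac transcription factor gene, was listed at 0 in every library of day 3. Tnni3 averaged 0.213 FPKM in the day 3 controls and 0.773 FPKM under follistatin, and Myh6 averaged 0.639 and 0.808 FPKM. The part of heart tissue in the Actc1 level was not tested.

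Mybph, the thick filament gene that was called higher in both sets as Actc1 was, lies at chr1:134193448-134201232 on the plus strand. At day 3 it was at 16.7, 22.2 and 24.3 FPKM in the controls and at 58.7, 88.8, 88.1 and 47.7 FPKM under follistatin. The arms did not overlap, and the spread under follistatin was wider than in the controls. Limma gave a log2 difference of 1.67 (SE 0.23, adjusted p = 0.0133), with a ratio of means of 3.36 and an exact permutation p of 0.0286. On the late days the controls were at 20.4 and 30.9 FPKM on day 7 and 10.8 FPKM on day 14. The follistatin libraries were at 195.9 and 237.8 FPKM on day 7 and at 233.6 and 210.2 FPKM on day 14. Levels under follistatin were thus alike on both late days, with overlapping libraries. By mean, follistatin day 14 and day 7 came first (221.9 and 216.9 FPKM), then follistatin day 3 (70.8), control day 7 (25.7), control day 3 (21.1) and control day 14. The controls of days 3 and 7 overlapped too, and the other neighbours did not. The late log2 difference was 3.45 (SE 0.30, adjusted p = 0.00261, limma), and it was called in each of the 7 fits that left out 1 late library.

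Adora1, the receptor gene, lies at chr1:134199223-134235431 on the minus strand, tail to tail with Mybph. In the GENCODE annotation the exons of both genes share 1162 bases on opposite strands, between positions 134199714 and 134201232. The shared bases make up 49.9% of the exon bases of Mybph and 20.1% of those of Adora1. The authors' deposited table gives both genes 1 common locus, from 134193447 to 134235457. Since the labels name no strand setting, fragments from the shared bases cannot be assigned to either gene from these files.

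At day 3 Adora1 was at 2.84, 3.06 and 3.50 FPKM in the controls and at 8.84, 12.4, 11.6 and 6.79 FPKM under follistatin. On the late days the controls were at 2.45 and 3.44 FPKM on day 7 and 1.40 FPKM on day 14. The follistatin libraries were at 32.6 and 30.5 FPKM on day 7 and at 33.2 and 41.5 FPKM on day 14. As with Mybph, no follistatin library reached down to a control library of its set. By mean the order was follistatin day 14 (37.4 FPKM), day 7 (31.6) and day 3 (9.92), then control day 3 (3.14), day 7 (2.95) and day 14, and only the controls of days 3 and 7 overlapped among neighbours. Limma gave log2 differences of 1.37 at day 3 (SE 0.19, adjusted p = 0.0128) and 3.41 on the late days (SE 0.21, adjusted p = 0.000841). The exact permutation p was 0.0286 in both sets.

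The FPKM of Adora1 were between 0.111 and 0.198 of those of Mybph in all 14 libraries, with a median of 0.141. The median was 0.133 in the 6 control libraries and 0.142 in the 8 follistatin libraries. At day 3 the ratio was 0.138 to 0.170 in the controls and 0.132 to 0.151 under follistatin. On the late days it was 0.111 to 0.129 in the controls and 0.128 to 0.198 under follistatin. There, only the lowest follistatin library lay within the range of the controls. Each gene spanned a wide range of FPKM over these libraries, and their ratio spanned a smaller one. How much of the Adora1 value came from Mybph fragments was not tested. Among the adenosine receptor and nucleotide genes, with the other adenosine receptors and the enzymes that make and remove adenosine, 2 of 7 could be tested at day 3 and 3 of 7 on the late days. Limma called none of them in either set, with 0 and 1 at an unadjusted p under 0.05.

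**Figure D2:**
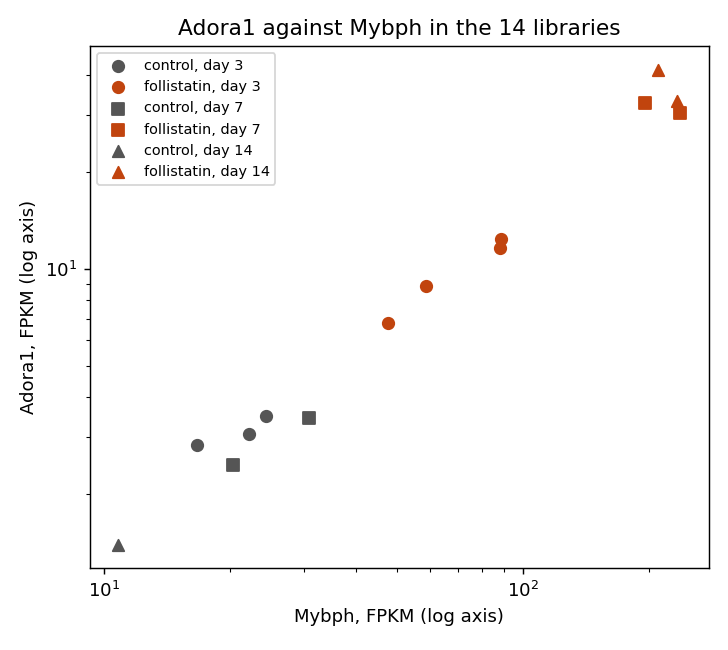
Adora1 against Mybph, both in FPKM on log axes, with 1 point for each of the 14 libraries, shaped by day and coloured by arm. The points lie along 1 band, with a ratio of Adora1 to Mybph between 0.111 and 0.198, and both genes are highest in the 4 late follistatin libraries.

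The day 3 calls of Mybph and Adora1 depended on which control libraries were in the fit. Without control replicate 1 the adjusted p was 0.0658 for both genes, and without control replicate 2 it was 0.0619 for Mybph and 0.0645 for Adora1 (limma). The log2 difference stayed between 1.52 and 1.84 for Mybph and between 1.26 and 1.52 for Adora1 in the 7 such fits. Actc1 was called in all 7. In a fit of all 14 libraries with a common estimate of the spread, Actc1 at day 3 was not called (adjusted p = 0.218), whereas the other 2 genes were.

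Taken by single day, the same 3 genes were called on day 7 and on day 14, with the spread pooled over both days. On day 7, 3 of 7 tested genes were called higher, where 0.154% of all genes were. Limma gave log2 differences of 3.73 for Actc1 (SE 0.25, adjusted p = 0.0107), 3.05 for Mybph (SE 0.23, adjusted p = 0.0170) and 3.06 for Adora1 (SE 0.19, adjusted p = 0.00818). On day 14 the count was again 3 of 7, where 0.226% of all genes were called higher. The control arm of day 14 is 1 library, which is assumed to vary like the other groups, and there is no fit for this day without it. The log2 differences were 4.74 for Actc1 (SE 0.31, adjusted p = 0.00435), 4.24 for Mybph (SE 0.29, adjusted p = 0.00516) and 3.99 for Adora1 (SE 0.23, adjusted p = 0.00227). In all 3 genes that library was lower than both day 7 controls, so the sizes on day 14 rest on its value.

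These calls by single day rested on few libraries. On day 7 none of the 3 genes was called without follistatin day 7 replicate 1 (adjusted p = 0.116 for Actc1, 0.102 for Mybph and 0.0787 for Adora1, limma). The same held without replicate 2 of that group (0.134, 0.141 and 0.0751) and without follistatin day 14 replicate 1 (0.0986, 0.122 and 0.0581). Without follistatin day 14 replicate 2, Actc1 (0.0683) and Mybph (0.0891) were not called on day 7. On day 14 Actc1 was not called without follistatin day 7 replicate 1 (adjusted p = 0.0660) or replicate 2 (0.0626), nor was Mybph without replicate 1 (0.0524).

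Macrophage and proliferation markers lay on the late days in the same direction as these 3 genes, with none of them called. Of 9 macrophage markers limma called none in either set, with none at an unadjusted p under 0.05. On the late days all 9 were above 0, with a median difference of 0.64 against -0.09 over all genes. Their summed level was 45.4 to 122 FPKM in the late controls and 72.3 to 240 FPKM under follistatin, with overlapping arms. On day 7 the median was 0.04, with 7 of 9 above 0. On day 14, against the single control, it was 1.29, with all 9 above 0 and 2 at an unadjusted p under 0.05. Of 6 proliferation markers 2 were tested on the late days, Birc5 and Ccna2. Both were above 0 and neither was called (limma), and the sum of the 6 was 2.14 to 3.85 FPKM in the late controls and 5.65 to 11.1 FPKM under follistatin, without overlap. The part of these cells in the levels of Actc1, Mybph and Adora1 was not tested.

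Within the follistatin arm, day 14 was compared directly with day 7. Actc1 was lower on day 14, at 2028 FPKM on average against 6050 FPKM, a log2 difference of -1.58 (SE 0.25) that limma did not call (adjusted p = 0.337, unadjusted p = 0.00113). Mybph differed by 0.04 (adjusted p = 0.981) and Adora1 by 0.23 (adjusted p = 0.711). None of the 7 genes tested was called, and 4 of them had an unadjusted p under 0.05, as had 8.59% of all genes. Of all genes, 0.127% were called in this comparison of 2 libraries against 2.

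**Figure D3:**
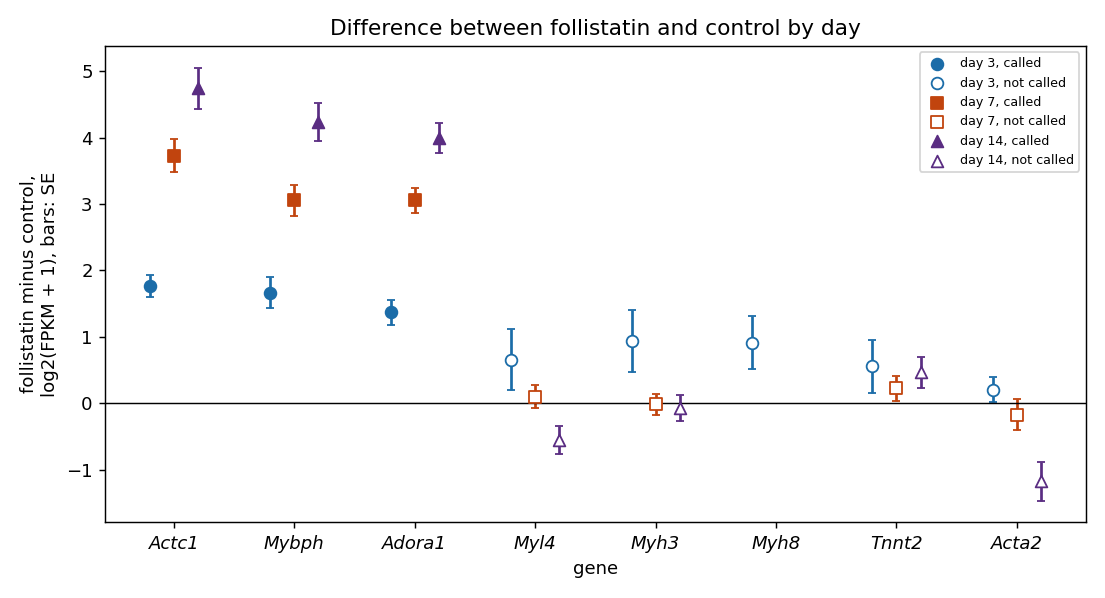
Follistatin minus control on the log2(FPKM + 1) scale for each gene at day 3, day 7 and day 14, with standard errors from limma as bars; filled symbols were called and open symbols were not. Actc1, Mybph and Adora1 lie between 1.37 and 4.74 on all days, and day 14 rests on 1 control library. Myh8 has a day 3 value only, since it was left out of the late limma tests.

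Whether the follistatin difference was larger on the late days than at day 3 was tested with an interaction term in a fit of all 14 libraries. Adora1 was the only 1 of the 7 genes called, with a late minus early difference of 2.04 (SE 0.30, adjusted p = 0.0322, limma), where 0.0619% of all genes were called in that direction. For Actc1 the difference was also 2.04, with a larger error (SE 0.82, adjusted p = 0.291). For Mybph it was 1.79 (SE 0.41, adjusted p = 0.145). In the 2 genes that share exon bases, the call therefore separated values that differed by less than their standard errors. The Adora1 call held in 7 of the 14 fits that left out 1 library. At day 3 it was lost without control replicate 1 (adjusted p = 0.0764), 2 (0.0714) or 3 (0.149) and without follistatin replicate 1 (0.0565) or 3 (0.0596). Among the late libraries it was lost without control day 7 replicate 1 (0.0870) or follistatin day 14 replicate 1 (0.0541).

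The embryonic and neonatal genes Myh3, Myh8, Myl4 and Tnnt2 were not called between the arms at day 3. Of these, Myh8 was left out of limma on the late days, and the other 3 were not called there. Myh3, at chr11:67078300-67102291 on the plus strand, was at 14.8, 16.9 and 44.6 FPKM in the day 3 controls. Under follistatin at day 3 it was at 42.2, 90.2, 38.1 and 25.3 FPKM. The arms overlapped, because control replicate 3 exceeded 3 of the 4 follistatin libraries. The log2 difference was 0.94 (SE 0.47, adjusted p = 0.397, limma) with a ratio of means of 1.93. Late levels of Myh3 were between 1.07 and 1.93 FPKM in the controls and between 0.806 and 1.77 FPKM under follistatin, with a log2 difference of -0.11 (SE 0.20, adjusted p = 0.729, limma). By mean, Myh3 was highest in follistatin day 3 (49.0 FPKM) and control day 3 (25.4), which overlapped. Control day 7 (1.79) and follistatin day 7 (1.76) overlapped, as did control day 14 and follistatin day 14 (0.985).

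Myh8, the neonatal heavy chain, lies downstream of Myh3 in the same myosin cluster, at chr11:67277124-67308634. Its coding sequence is 81.1% identical to that of Myh3, with a longest identical run of 77 bases, so fragments may be shared between them. The day 3 controls were at 4.21, 5.28 and 13.7 FPKM and the follistatin libraries were at 13.8, 23.0, 12.9 and 8.71 FPKM. The highest control again stood inside the range of the follistatin libraries. The log2 difference was 0.91 (SE 0.39, adjusted p = 0.320, limma). For the late days the authors' table marks Myh8 as HIDATA, so the set value was left out and no late limma test was made. The library files list 1.91 to 5.005 FPKM in the late controls and 1.32 to 3.82 FPKM under follistatin, with overlapping arms. On these library values the late log2 difference was -0.26, with an exact permutation p of 0.543.

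Myl4, whose light chain binds the neck of the myosin head, lies at chr11:104550663-104595753. At day 3 it was at 21.8, 27.3 and 79.3 FPKM in the controls and at 49.8, 101.5, 59.9 and 36.7 FPKM under follistatin. Control replicate 3 was above all but 1 of the follistatin libraries. Limma gave a log2 difference of 0.66 (SE 0.46, adjusted p = 0.559). Later it was at 8.92 to 11.7 FPKM in the controls, at 11.9 and 13.0 FPKM under follistatin on day 7, and at 4.90 and 6.77 FPKM on day 14. The late difference was -0.28 (SE 0.30, adjusted p = 0.548, limma).

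Tnnt2, the cardiac and embryonic troponin T that ties tropomyosin to the troponin complex, lies at chr1:135836354-135852260. The day 3 levels were 15.0, 20.3 and 38.7 FPKM in the controls and at 30.0, 63.2, 35.4 and 20.0 FPKM under follistatin. The arms overlapped as for the myosins, with the same control library high. The log2 difference was 0.56 (SE 0.40, adjusted p = 0.568, limma). Its late levels were 2.42 to 3.91 FPKM in the controls and 3.15 to 4.37 FPKM under follistatin, with a log2 difference of 0.29 (SE 0.15, adjusted p = 0.258, limma). Within day 7, and within day 14 with its single control, the follistatin libraries lay above the controls. The share of all genes that do so on a single day was not counted.

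In the authors' deposited table, made with Cuffdiff, these 4 genes were called at day 3. That table gives q-values of 0.00191 for Myh3, Myh8 and Tnnt2 and 0.00880 for Myl4, with log2 fold changes of 0.90, 0.87, 0.55 and 0.50. The sizes are close to the differences above, and the calls differ from those made with limma over libraries. For the late days the authors' deposited table calls none of Myh3, Tnnt2 and Myl4, with q-values of 0.619, 0.348 and 0.535. For Actc1, Mybph and Adora1 it gives a q-value of 0.00191 at day 3 and 0.000894 on the late days.

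The libraries within each arm of day 3 differed in the same direction for most of these genes. Control replicate 3 and follistatin replicate 2 were singled out after the values were seen, as the libraries with the highest embryonic gene levels. The count of members is therefore a description and no test. Control replicate 3 was the highest of its arm and follistatin replicate 2 the highest of its arm for 7 of the 8 genes, all but Actc1. For Mybph, follistatin replicate 2 led replicate 3 only narrowly (88.8 against 88.1 FPKM). The same order held for 14.2% of the 11268 genes tested. It held for 15 of 21 myogenic, regeneration and denervation genes, such as Myog, a myogenic transcription factor gene. It also held for all 9 macrophage markers, whose summed level ranged from 158 to 240 FPKM in the controls and from 147 to 342 FPKM under follistatin at day 3. In bulk tissue, fewer cells of a type and less RNA per cell cannot be told apart, and the part of these cells in the levels above was not tested. With both libraries left out, Actc1 was still called (log2 difference 1.86, adjusted p = 0.0307, limma). Mybph (1.65) and Adora1 (1.32) then had an adjusted p of 0.0811. Myh3 differed by 1.08 (adjusted p = 0.136), Myh8 by 1.14 (0.109), Myl4 by 0.94 (0.180) and Tnnt2 by 0.64 (0.385), none of them called.

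**Figure D4:**
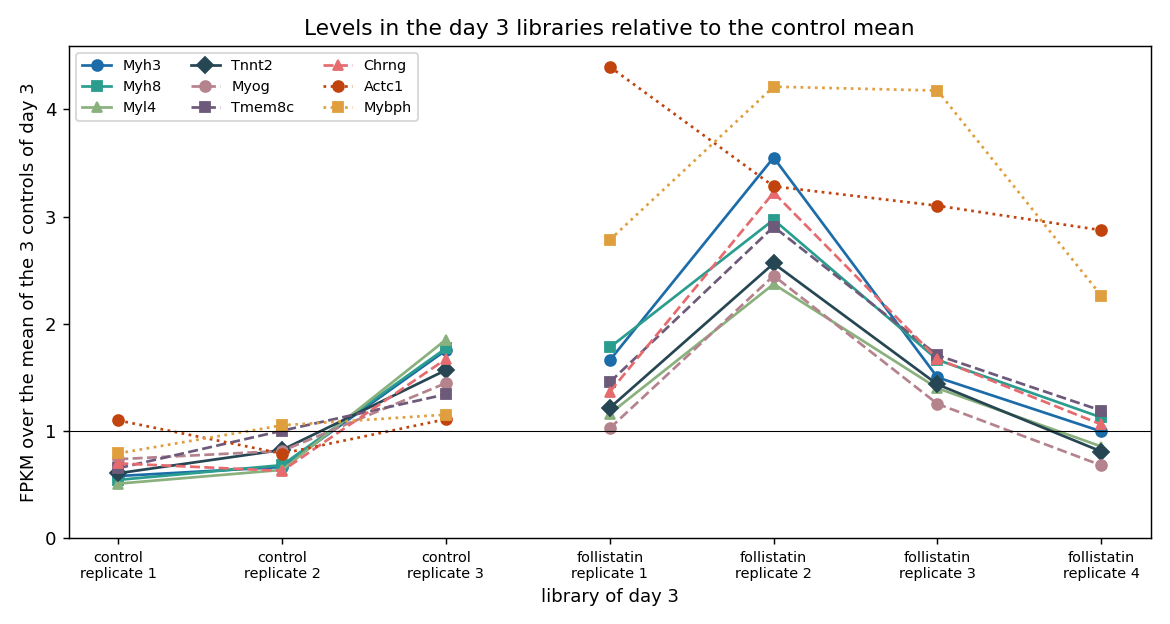
Level of 6 members and 3 other myogenic genes in each day 3 library, as FPKM divided by the mean of the 3 controls, on a linear axis from 0; lines join the values of a gene within an arm and stand for no order. Myh3, Myh8, Myl4 and Tnnt2 are highest in control replicate 3 and in follistatin replicate 2 of their arms, together with Myog, Tmem8c and Chrng, whereas Actc1 is highest in follistatin replicate 1.

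The late days were then compared with day 3 within each arm, in a comparison added after the values had been seen. In the controls Myh3, Tnnt2 and Myl4 fell. They made 3 of the 7 genes tested, where 2.11% of all genes were called lower. Myh3 fell by 3.21 on the log2 scale (SE 0.42, adjusted p = 0.000295, limma), from 25.4 ± 16.6 FPKM (SD, n = 3) to 1.55 ± 0.436 FPKM (SD, n = 3). Tnnt2 fell by 2.55 (SE 0.36, adjusted p = 0.000554), and Myl4 fell by 1.69 (SE 0.46, adjusted p = 0.0495). The call of Myl4 was kept in 4 of 14 fits that left out 1 library, those without control day 3 replicate 1, follistatin day 3 replicate 2 or 4, or follistatin day 14 replicate 1. The adjusted p over the 14 fits ran from 0.0350 to 0.184, the highest without control day 3 replicate 3. All late control libraries lay below all day 3 controls for these 3 genes, as for 21.1% of all genes. Actc1, Mybph, Adora1 and Acta2 overlapped between the sets in the controls and were not called.

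Under follistatin the 7 genes tested were all called, 3 higher and 4 lower, and Myh8 was left out as HIDATA. Actc1, Mybph and Adora1 rose from day 3 to the late days by log2 differences of 2.11, 1.66 and 1.72 (adjusted p = 0.00896, 0.000576 and 3.8e-05, limma), where 8.09% of all genes were called higher. Myh3, Tnnt2, Myl4 and Acta2 fell, with log2 differences of -4.26, -2.83, -2.62 and -1.36 (adjusted p = 3.04e-06, 3.14e-05, 0.000388 and 0.00241), where 28.8% of all genes were called lower. The median of all genes in this comparison was -0.18, and 0.00 after rescaling libraries by their median ratio. With that rescaling 55.2% of all calls were higher, against 21.9% without it. The 7 members kept their calls and directions under it, with Acta2 at -1.15 and Mybph at 1.88. In the controls the same rescaling left Myl4 short of a call (-1.59, adjusted p = 0.0534, limma). Acta2 and the early isoforms therefore moved opposite to Actc1 within the same libraries.

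Genes known from regeneration and from denervated muscle were followed beside them. Of 20 myogenic, regeneration and denervation genes tested in the controls, 8 were called lower on the late days than at day 3 and none higher. In that comparison 2.11% of all genes were called lower. Tmem8c, which encodes the fusion protein myomaker, fell by 2.90 on the log2 scale (adjusted p = 5.29e-05, limma). Myog fell by 2.51 (adjusted p = 0.000556), and Chrng, the embryonic subunit of the acetylcholine receptor, fell by 2.08 (adjusted p = 0.00175). The other 5 were Gm7325 (myomixer), Myod1, Chrna1, Runx1 and Vim. The macrophage markers Cd68 and Csf1r were called lower as well, 2 of 9, and the summed macrophage level was 45.4 to 122 FPKM in the late controls. Of 7 pericyte markers 1 was called lower, and of 8 smooth muscle and 7 endothelial markers none. Tnni1, the slow troponin I gene of the adult sarcomere list, fell by 2.20 (adjusted p = 0.00467, limma). Of the 9 genes of that list tested, 1 was called lower and 1 higher.

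Under follistatin, 13 of the 20 myogenic, regeneration and denervation genes were called lower on the late days than at day 3, and none higher. The same held for 5 of 7 pericyte, 4 of 8 smooth muscle, 3 of 7 endothelial, 3 of 9 fibroblast and 3 of 9 macrophage markers, and for 3 of 4 satellite cell and myoblast markers (limma), where 28.8% of all genes were called lower. The summed pericyte level went from 206 to 251 FPKM at day 3 to 61.4 to 134 FPKM on the late days, without overlap. The summed macrophage level was 147 to 342 FPKM and then 72.3 to 240 FPKM, with overlap. The part of these cells in the fall of Myh3, Tnnt2, Myl4 and Acta2 in either arm was not tested.

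Acta2, at chr19:34241090-34255590 on the minus strand, was not called between the arms at day 3 or on the late days. At day 3 it was at 26.7, 24.5 and 31.8 FPKM in the controls and at 31.8, 45.5, 27.8 and 25.6 FPKM under follistatin, with overlapping arms. The difference was 0.21 (SE 0.19, adjusted p = 0.664, limma). On the late days it was at 24.6 and 16.5 FPKM in the day 7 controls and 18.8 FPKM in the day 14 control. Under follistatin it was at 19.7 and 16.1 FPKM on day 7 and at 8.72 and 6.91 FPKM on day 14. The 2 follistatin libraries of day 14 were the lowest of all 14, and the arms overlapped at days 3 and 7. The late difference was -0.69 (SE 0.34, adjusted p = 0.218, limma), and at day 14 alone it was -1.18 (SE 0.29, adjusted p = 0.204). The authors' deposited table calls it lower on the late days, with a log2 fold change of -0.65 and a q-value of 0.00718.

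Markers of the cells known to carry Acta2 were mostly not called either. At day 3 limma called none of 8 smooth muscle markers (3 at an unadjusted p under 0.05) and none of 7 pericyte markers (4), with medians of -0.18 and -0.25, while Acta2 was at 0.21. Of the 8 smooth muscle markers tested on the late days limma called none, with 6 at an unadjusted p under 0.05. Of the 8, 5 were below 0 and 3 above it, and the median difference was -0.61, against -0.09 over all genes. Those above 0 were Actg2 (enteric smooth muscle gamma-actin), Smtn and Des. Actg2 was 1 of the 6, with 1.31 to 12.04 FPKM in the late controls and 12.95 to 28.1 FPKM under follistatin (log2 difference 1.66, adjusted p = 0.101, limma). The summed level of the smooth muscle list without Des, a gene of striated muscle too, was 133 to 148 FPKM in the late controls and 68.9 to 125 FPKM under follistatin. Of 7 pericyte markers none was called and all were below 0, with 5 at an unadjusted p under 0.05. Their sum was 162 to 208 FPKM in the late controls and 61.4 to 134 FPKM under follistatin. Of 7 endothelial markers 1 was called lower, Tek, an angiopoietin receptor gene (-0.85, adjusted p = 0.0410), where 3.27% of all genes were called lower. All 7 were below 0 with an unadjusted p under 0.05, and their sum was 124 to 166 FPKM against 60.8 to 108 FPKM. The part of these cells in the Acta2 level was not tested.

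Of the 25 genes that build the adult sarcomere, none was called between the arms in either set. Of 23 tested at day 3 limma called none, with 2 at an unadjusted p under 0.05 and a median difference of 0.02. Of the 25, 15 were marked HIDATA on the late days, and of 9 tested none was called, with 2 at an unadjusted p under 0.05. Of 18 other developmental and cardiac sarcomere genes, 13 were tested in each set. Over all genes tested, 0.923% were called higher and 0.568% lower at day 3, and 2.24% and 3.27% on the late days. At day 3 Casq2, the cardiac calsequestrin of the calcium store, rose by a log2 difference of 0.94 (adjusted p = 0.0373, limma), as did Xirp1, an actin-binding repeat protein gene, by 0.66 (adjusted p = 0.0373). Lmod2, which encodes a leiomodin that acts at thin filament ends, fell by 0.93 (adjusted p = 0.0110). Later Casq2 rose by 1.31 (adjusted p = 0.0124) and Smpx, a small muscle protein gene, rose by 0.99 (adjusted p = 0.0189), while Lmod2 fell by 1.62 (adjusted p = 0.00576). The remaining 10 in each set were not called, and the list's medians were 0.39 at day 3 and -0.07 on the late days. An unadjusted p under 0.05 was reached by 7 of the 13 at day 3 and by 5 on the late days (limma). Of all genes, 15.2% and 28.3% reached it.

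Of 21 myogenic, regeneration and denervation genes tested at day 3, 1 was called higher under follistatin, Myf6, a myogenic transcription factor gene of mature fibres (0.57, adjusted p = 0.00593, limma). Its libraries were at 61.5 to 66.4 FPKM in the controls and at 91.8 to 98.4 FPKM under follistatin. On the late days 3 of 17 were called higher, namely Sln (sarcolipin, a regulator of the calcium pump, 1.496, adjusted p = 0.00987), Nes (nestin, 1.10, adjusted p = 0.0117) and Igf2 (a growth factor, 1.04, adjusted p = 0.0251). Among all genes tested, 0.923% were called higher at day 3 and 2.24% on the late days. The list's medians were 0.33 and 0.40, with 4 of 21 and 9 of 17 at an unadjusted p under 0.05 (limma). Of 19 transcription factor genes that act on contractile genes, Tead1, which encodes an M-CAT binding factor, fell in both sets (-0.60, adjusted p = 0.0497 at day 3, and -1.38, adjusted p = 0.00864 on the late days). It was at 36.8 to 44.4 FPKM in the late controls and at 11.1 to 17.9 FPKM under follistatin. Eya1, a transcriptional cofactor gene, fell on the late days (-0.62, adjusted p = 0.0465). The shares of all genes called lower were 0.568% at day 3 and 3.27% on the late days. None of the 19 was called higher in either set, and the list's medians were 0.07 and -0.35. At day 3, 12 of the 19 were above 0 and 6 had an unadjusted p under 0.05 (limma). On the late days 4 were above 0 and 8 had an unadjusted p under 0.05.

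The genes whose levels most resembled those of 4 members were found by Pearson's r of log2(FPKM + 1) over the 14 libraries, among 10083 genes. These values are a description, since all libraries share the split by arm and day. Closest to Actc1 were Ctnnbip1 (0.943), Npr3 (0.933) and Wdr1 (0.933). Closest to Mybph were Wdr1 (0.979), Itgb1bp2 (0.974) and Mamstr (0.971). Wdr1 encodes a cofactor of actin filament disassembly, Itgb1bp2 encodes melusin, and Mamstr encodes a coactivator of MEF2 factors. Mamstr was at 12.04 ± 0.860 FPKM (SD, n = 3) in the day 3 controls and 19.5 ± 2.22 FPKM (SD, n = 4) under follistatin. Closest to Myl4 were Tnni1 (0.977), Frmd4b (0.967) and Capn6 (0.962). Tnni1 was at 15.3 to 33.0 FPKM in the day 3 controls and at 2.79 to 4.04 FPKM in the late ones. Closest to Acta2 were Rbm10 (0.974), Emp2 (0.955) and Dgka (0.947).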

How the data were processed

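Poly(A) RNA of 14 libraries (6 control, 8 follistatin) was prepared with a TruSeq kit, per the labels' protocols. Reads were aligned with TopHat and quantified with Cuffdiff on mm10, per the submitters' processing notes; versions, annotation and counting mode are not given in the sources used here. The authors deposited FPKM per gene and library. The authors' deposited tables for day 3 and for days 7 and 14 also hold log2 fold changes, test scores, p-values and q-values from Cuffdiff.

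Of 24386 genes, 27 with symbols turned into dates were left out. Genes marked HIDATA by the authors (4 at day 3, 31 late) were left out of the limma tests. Each set was fitted with limma 3.58.1 in R 4.3.3 (eBayes with trend) on log2(FPKM + 1), the pseudocount being 1, keeping genes whose mean reached 1 FPKM. Tests were two-sided, with Benjamini-Hochberg adjustment over all genes tested. The limma fits were also run on simulated data, where the check was on the recovered effect size only. The comparisons of late days with day 3 were not simulated. Single days used the spread of all 7 late libraries. The interaction and the comparisons of late days with day 3 used all 14 libraries. The exact permutation test used the 35 splits of 3 against 4 libraries.

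Relative depth was read from the steps between FPKM under 0.5, taken as ratios of up to 6 fragments within 0.02 on the log2 scale. Against control day 3 replicate 1, the other day 3 libraries had 0.683 to 1.28 of its depth, with 79.3% to 83.9% of low values matched. Only 54.7% to 62.9% matched in late libraries, so no depth is given for them.

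The text names all 8 members, up to 6 called genes of each list and comparison by smallest p, and the 3 genes nearest to each of Actc1, Mybph, Myl4 and Acta2. Genes of the comparison over time, cell type markers and Fst are named outside that rule, after their values were seen. Members and lists were chosen with earlier results of these data known. All list symbols were found, 2 of them under older names (Tmem8c for Mymk and Gm7325 for Mymx). Gene positions, exons and coding sequences came from GENCODE M21 (GRCm38), the build the authors call mm10, and promoters from RefSeq (GRCm38.p6). Protein sequences were not used here.

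Alternatives were another pseudocount (0.1), other filters (none, or at least 5 FPKM), rescaling by median ratios, quantile normalization, robust eBayes, leaving out 1287 small RNA genes, keeping HIDATA genes, leaving out each library, a replicate block, and all 14 libraries in 1 fit. Leaving out both day 3 libraries with the highest embryonic gene levels was added after the values were seen.

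Of the remaining marker lists, limma called none of 9 fibroblast markers in either set (3 at an unadjusted p under 0.05 at day 3, none late). It called none of 5 and 4 satellite cell and myoblast markers (0 and 1 at an unadjusted p under 0.05), and none of 1 and 2 proliferation markers (0 and 2). Of 6 skeletal fibre markers tested at day 3 none was called, with 1 at an unadjusted p under 0.05.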

Additional observations from a re-analysis of the deposited data

Results flagged for a closer look

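The follistatin difference of Adora1 was larger on days 7 and 14 than at day 3. The late minus early difference was 2.04 on the log2(FPKM + 1) scale (SE 0.30, adjusted p = 0.0322, limma interaction over 14 libraries). All 4 late follistatin libraries, at 30.5 to 41.5 FPKM, stood above all 4 of day 3, at 6.79 to 12.4 FPKM, while the controls overlapped between the sets. In fits that left out 1 library the adjusted p ran from 0.0105 to 0.149, and in 7 of 14 it was called; the 7 libraries without which it was lost are control day 3 replicates 1, 2 and 3, follistatin day 3 replicates 1 and 3, control day 7 replicate 1 and follistatin day 14 replicate 1. Mybph, with which Adora1 shares 1162 exon bases, differed by 1.79 (adjusted p = 0.145).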

How the results depend on the processing

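Over all genes, day 3 gave 168 calls, 266 without small RNA genes, 46 without both high day 3 libraries, and 39 to 165 with 1 library left out. The late days gave 608, 284 with no filter, 963 without small RNA genes, 2071 with all 14 libraries in 1 fit, and 43 to 907 with 1 left out. Day 7 gave 24, 15 with no filter, 83 with robust eBayes, 72 without small RNA genes, 49 with HIDATA genes kept, and 9 to 59 with 1 left out. Day 14 gave 56, 32 at 5 FPKM, 147 with robust eBayes, 120 without small RNA genes, and 36 to 90 with 1 left out. Day 14 against day 7 under follistatin gave 14, 26 with robust eBayes, and 11 to 58 with 1 left out. The interaction gave 10, 2 with no filter, 6 by median ratios, 24 with HIDATA genes kept, and 2 to 32 with 1 left out. Controls over time gave 652, and 406 to 823 with 1 left out. The cause of these shifts was not tested.

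Median ratio rescaling moved the share of late calls that were higher from 40.6% to 57.5%, of day 14 calls from 44.6% to 55.7%, of interaction calls from 70% to 100%, and of control time calls from 63.3% to 76%.

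A replicate block left 19 calls at day 3 and 164 late; Actc1, Mybph and Adora1 were called in both. Same-numbered libraries were not treated as pairs in the main fits, and the labels do not say whether they share a mouse. The correlations of their deviations ran from -0.06 to 0.11. At day 3, 0 of 3 controls correlated best with their own number, and 2 of 3 did on the late days. So few libraries cannot decide whether they were paired.

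Of the member values, 976 kept direction and call, 51 lost a call and 18 changed sign, none of the last a called value. Late Myh3 was 0.011 with the block and -0.25 to 0.011 with 1 library left out. Myh3 on day 7 was 0.032 by median ratios, 0.062 by quantiles, and -0.087 to 0.057 with 1 left out. On day 14 it was 0.0030 by quantiles and -0.20 to 0.061. Acta2 on day 7 was -0.44 to 0.10. Day 14 against day 7, Mybph was -0.10 to 0.18 and Tnnt2 -0.32 to 0.051. The Tnnt2 interaction was -0.64 to 0.016. Over time in controls, Actc1 was -0.078 by quantiles and -0.53 to 0.93 with 1 left out, and Mybph -0.46 to 0.26. Actc1 lost its late call with no filter (adjusted p = 0.0601) and with robust eBayes (0.0662). With no filter Actc1 (0.0570) and Mybph (0.0508) lost their day 7 calls. The fall of Myl4 in the controls was not called with no filter (0.101), by median ratios (0.0534) or with robust eBayes (0.0946). Actc1 lost its day 3 call with all 14 libraries in 1 fit (0.218). Adora1 lost its interaction with no filter (0.0632) and with day 7 alone (0.0993, limma). Low FPKM, as of late Myh3, rest on an unknown number of fragments.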
